A study of Homo sapiens with 18 samples.

Results

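The DNA topoisomerase TOP2A was mapped in KG-1 cells that received no drug and in KG-1 cells exposed to mitoxantrone. These libraries are 2 of 18 samples of a series that also covers TOP2B, etoposide and input DNA. KG-1 is a human acute myeloid leukaemia line. One library came from cells left without drug for 1 h and the other from cells given 0.5 µM mitoxantrone for 1 h, and both used the same TOP2A antibody (5 µg). In both groups chromatin was fixed with 1% formaldehyde for 10 min, 3 immunoprecipitations were pooled, and 50 bp paired-end reads were obtained, per the labels' protocols. All peaks in the deposited MACS and SISSRs lists of the TOP2A library of each group were taken. That gave 109739 untreated and 7607 mitoxantrone MACS peaks, of 1413022 in the 12 immunoprecipitated libraries, and 107945 and 3740 SISSRs sites. Each group is 1 library, so differences have no replicate check. Intervals are exact 95% intervals that cover counting error only. The depth of the libraries is unknown, and a difference in depth cannot be told apart from the drug.

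TOP2A cuts both strands of a DNA duplex, passes another duplex through the break and reseals it. It is made mainly in dividing cells, where it untangles chromosomes before they separate. Mitoxantrone is an intercalating poison of type II topoisomerases: it holds the enzyme on the cleaved DNA, and a short exposure therefore leaves covalent enzyme on broken ends. KG-1 carries a rearranged karyotype, and copy number was not measured here.

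After mitoxantrone the list was short, and its peaks were wider and less often found by the second caller. SISSRs sites fell from 0.984 per MACS peak to 0.492. The site lists began at unlike levels, with at least 27 tags per site without drug and 34 with mitoxantrone. These values therefore describe the deposited lists. Only 120 peaks (1.58%, interval 1.31 to 1.88) reached a score of 100 with mitoxantrone, against 20218 (18.4%, 18.2 to 18.7) without drug. The score is the caller's own value per peak and starts at 50 in both lists. It depends on depth and caller settings, which are unknown here, so these shares describe each list and do not show weaker binding. Wide peaks thinned out less than the list as a whole: 2247 untreated peaks and 486 mitoxantrone peaks were at least 1 kb wide, 4.62-fold fewer, while the whole list was 14.4-fold shorter. Their share of the list was thus 2.05% (1.96 to 2.13) without drug and 6.39% (5.85 to 6.96) with it.

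The median width was 492 bp without drug (quartiles 403 and 570 bp) and 550 bp with mitoxantrone (475 and 663 bp). The narrow tail was the one that was missing, with 5% of untreated peaks at or under 267 bp. Width and score were related in opposite directions in the lists. Spearman's rho over peaks was -0.23 in 109429 untreated peaks and 0.17 in 7584 mitoxantrone peaks on the autosomes and X, as a description, since peaks of 1 library are not independent. With the untreated list split by score into 10 groups of like size, the highest group had a median width of 308 bp and the lowest 522 bp. With the mitoxantrone list split into 4 such groups, the highest was the widest, at 603 bp, and the lowest measured 523 bp. The highest score group was thus the narrow one without drug and the wide one under mitoxantrone, but neither relation was even. In 4 groups by width, from narrow to wide, the median score percentile was 74.3, 38.6, 36.4 and 53.3 without drug. With mitoxantrone it was 46.4, 40.8, 49.3 and 64.2. The highest score groups also began at unlike scores, 119.23 without drug and 66.11 with mitoxantrone.

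**Figure D1:**
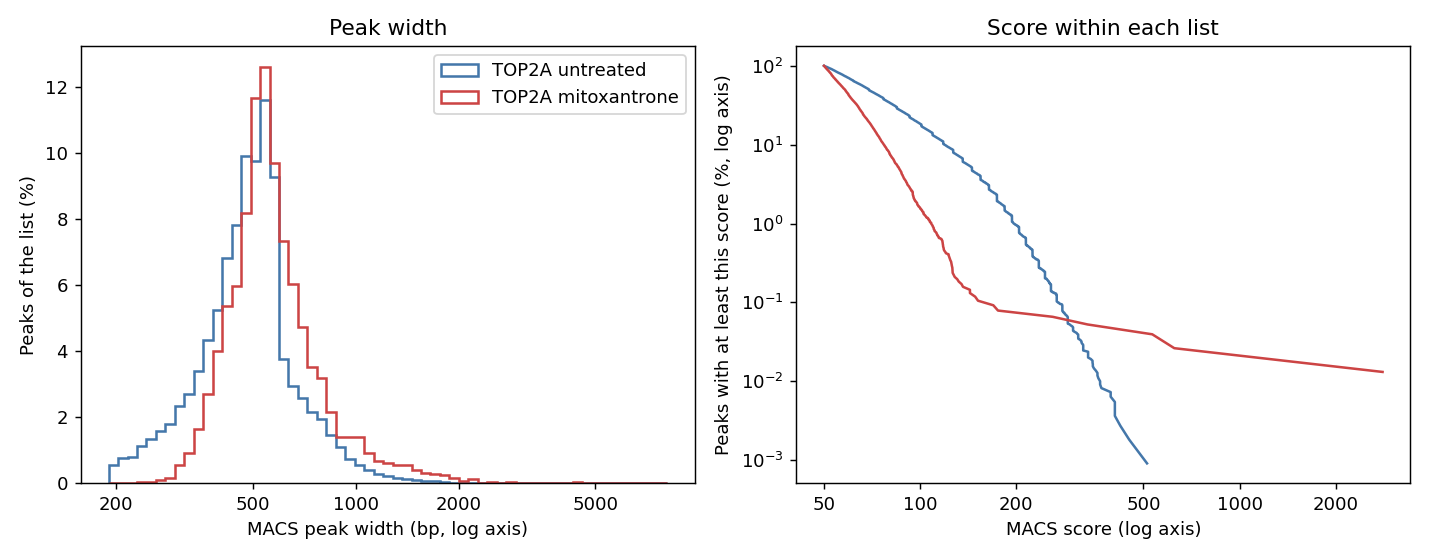
Left, the distribution of MACS peak width (bp, log axis) as the percentage of each list. Right, the percentage of each list with at least a given MACS score (both axes log). The mitoxantrone widths are shifted to the right (median 550 against 492 bp), and its scores fall off faster, with 1.58% of peaks at a score of 100 or more, except for a thin tail that reaches 2803.8.

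SISSRs, which looks for the switch of read direction around a binding site, placed a site in 63.7% (63.4 to 64.0) of untreated peaks and in 23.8% (22.8 to 24.8) of mitoxantrone peaks. In both lists this share rose with score. It went from 32.1% in the lowest of the 10 untreated score groups to 99.1% in the highest, and from 11.6% to 40.5% over the 4 mitoxantrone groups. Viewed from the sites, 66.7% of untreated and 48.5% of mitoxantrone sites lay in a MACS peak. The smallest number of tags in a site was 27 without drug and 34 with mitoxantrone, and the largest was 1049 and 74. Apart from such extreme values the upper ends were alike, with a 95th percentile of 46 tags without drug and 47 with mitoxantrone. The medians were 31 and 37 tags. The smallest fold in a site was 2 without drug and 7 with mitoxantrone. Both site lists thus began at unlike levels, and how far this set the shares of peaks with a site was not tested.

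The drop in peak number was spread evenly over most chromosome arms and differed on a few. Shares of the list are compared here, which scales each list to its own total. The ratios still depended on where a list was cut. With lists of equal length the ratio was 0.161 rather than 0.316 for X, and 2.32 rather than 1.33 for chromosome 8. Of 42 arms, 40 held enough peaks to be counted. The middle 50% of these had a mitoxantrone share between 0.930 and 1.03 times the untreated share. No arm reached a ratio of 1.5 (0% of arms counted), and 2 arms (5%) were at or under the inverse of 1.5, both of them on chromosome X. Xp went from 657 peaks to 12, a ratio of 0.264 (0.135 to 0.463), and Xq from 1213 to 29, a ratio of 0.345 (0.230 to 0.498). The short arm of chromosome 17 had a ratio of 0.483 but only 8 mitoxantrone peaks, too few to be counted. The arms called changed with the setting. SISSRs sites gave 19p, 20q and Xq as lower. Bases covered gave Xp and Xq as lower and 8q as higher. With lists of equal length 19p was called higher, so its direction depended on the setting.

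The highest ratio was that of 8q, at 1.42 (1.30 to 1.56), with 5099 untreated and 503 mitoxantrone peaks. The only other arm whose interval lay above 1 was 2q, at 1.12 (1.02 to 1.22). As whole chromosomes, 8 held 6.16% of untreated and 8.21% (7.61 to 8.86) of mitoxantrone peaks, a ratio of 1.33 (1.23 to 1.45). Chromosome X held 1.71% and 0.541% (0.388 to 0.733), a ratio of 0.316 (0.226 to 0.431). Put as counts, X had 45.6-fold fewer peaks with mitoxantrone and chromosome 8 had 10.8-fold fewer. These counts do not follow given peaks, since 7034 of 7584 mitoxantrone peaks overlapped no untreated peak. The share of chromosome 17 was also lower, with a ratio of 0.827 (0.691 to 0.983).

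**Figure D2:**
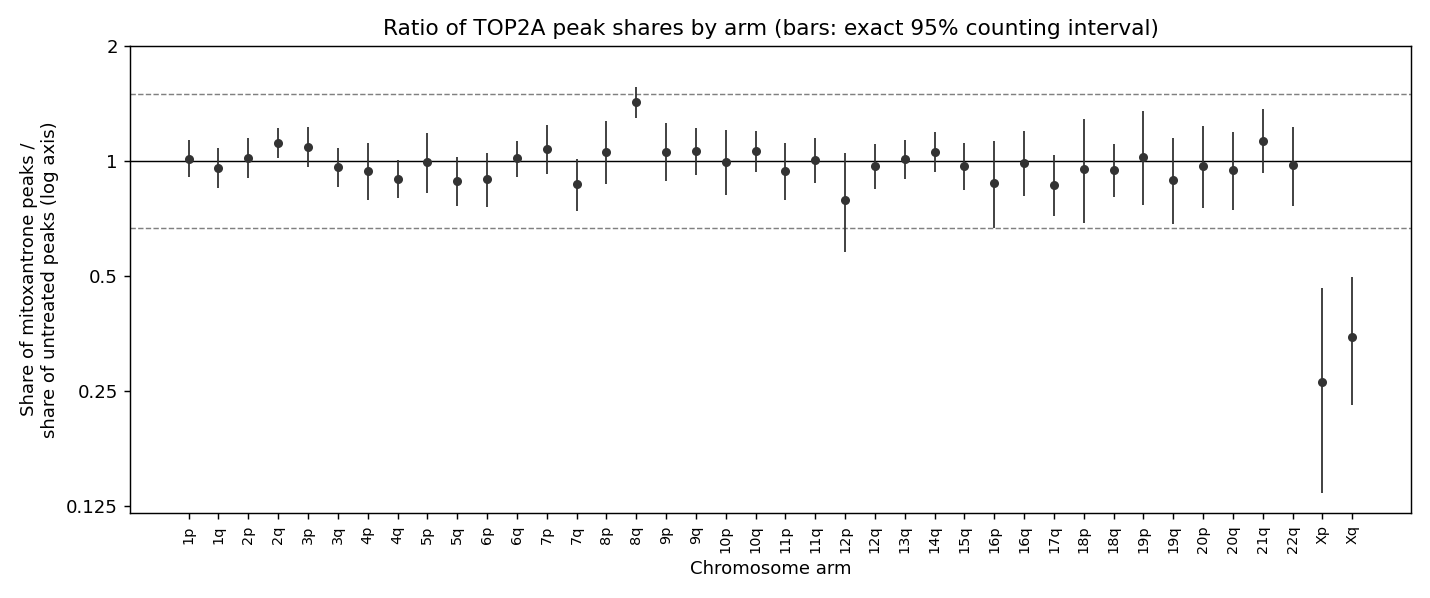
Ratio of the mitoxantrone share to the untreated share of TOP2A peaks for the 40 arms counted (log axis), with the exact 95% counting interval as bars and dashed lines at 1.5 and its inverse. Xp (0.264) and Xq (0.345) lie below the lower line, 8q (1.42) is the highest, and the other arms lie around 1.

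The mitoxantrone and etoposide experiments differed here. In the TOP2B mitoxantrone pair the ratio was 3.29 (2.74 to 3.94) for chromosome 8 and 0.275 for X, the latter with 1 peak and an interval of 0.00682 to 1.61. In the 4 etoposide and vehicle pairs it was 1.01 to 1.05 for chromosome 8 and 0.973 to 1.03 for X. The direction on chromosome 8 was thus shared by both antibodies of the mitoxantrone experiment.

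The chromosome X pattern extended to segments of other chromosomes, and these could be picked out without the 2 lists. Peak density in bins of 10 Mb, relative to the mean of each list, was taken as the median over the 8 libraries of the etoposide experiment. Of 290 bins, 38 had a value under 0.75, with a median of 0.514. These low-density bins were the 16 bins of X, 8 bins of chromosome 5 between 90 and 170 Mb, 5 bins of chromosome 4 between 140 and 190 Mb, 4 bins of chromosome 7 between 100 and 150 Mb, 3 bins of chromosome 12 between 10 and 60 Mb, and both bins of chromosome 17 from 0 to 20 Mb. Another 12 bins had a density of 1.5 or more, with a median of 2.33, and 11 of them were the run of chromosome 8 from 40 to 150 Mb. The remaining one was on chromosome 16, from 30 to 40 Mb. The limits of these classes were chosen after the values had been seen.

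In the low-density bins peaks went from 5258 to 160, which is 32.9-fold fewer. In the 240 bins of middle density they went from 97506 to 6776, or 14.4-fold fewer, and in the high-density bins from 5447 to 533, or 10.2-fold fewer. The ratio of shares was 0.439 (0.373 to 0.514) in the low class, 1.00 (0.978 to 1.03) in the middle class and 1.41 (1.29 to 1.54) in the high class. The 261 bins with at least 10 expected peaks, which include 10 low-density bins, were also split by density into 4 groups. From thin to dense their ratios were 0.978, 1.04, 0.977 and 1.07. Over these bins density and ratio had a Spearman's rho of 0.109 and a Pearson's r of 0.419. The difference thus lay in the thinnest and densest bins, without an even trend between them. All 38 low-density bins had a ratio under 1, from 0 to 0.953, whereas the middle class split into 128 bins under 1 and 112 above. Without X the ratio of the low class was 0.507 (0.419 to 0.609), over 22 bins that were all under 1.

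Each chromosome of the low class showed it. The ratio was 0.400 (0.252 to 0.604) for the bins of chromosome 4, 0.506 (0.360 to 0.694) for those of chromosome 5 and 0.593 (0.394 to 0.859) for those of chromosome 7. It was 0.603 (0.375 to 0.923) on chromosome 12 and 0.388 (0.124 to 0.921) on chromosome 17. Segments already thin in the untreated library, with a relative density of 0.368, were thinner still with mitoxantrone, at 0.162. The dense segments went the other way, from 1.31 to 1.85. What sets the density of these segments was not tested.

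**Figure D3:**
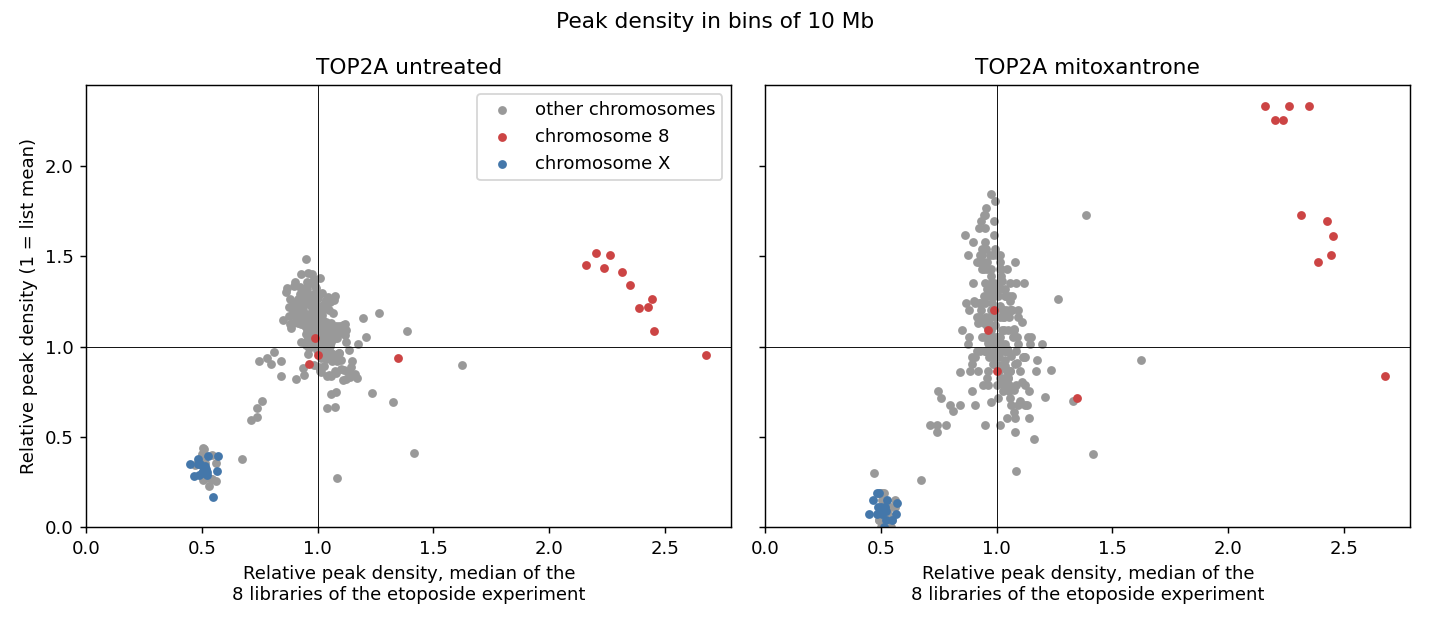
Relative peak density (1 is the mean of the list) in bins of 10 Mb for TOP2A without drug (left) and with mitoxantrone (right), against the median of the 8 libraries of the etoposide experiment. Each point is a bin, with chromosome 8 in red and X in blue. The group near 0.5 on the horizontal axis drops towards 0 with mitoxantrone (low class 0.368 to 0.162), and most chromosome 8 bins rise (high class 1.31 to 1.85).

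Single bins rested on few peaks. Of 261 bins with at least 10 expected mitoxantrone peaks, none had a ratio of 2 or more (0%), and 5 had 0.5 or less (1.92%). Chromosome 12 from 10 to 20 Mb went from 154 peaks to 0, a ratio of 0 with an upper limit of 0.350. Chromosome 5 from 120 to 130 Mb went from 165 to 1, with a ratio of 0.0874 and an upper limit of 0.494. Chromosome 4 from 160 to 170 Mb went from 168 to 3, with a ratio of 0.258 and an upper limit of 0.766. The other 2 were named after their values had been seen. X from 70 to 80 Mb went from 152 to 4, a ratio of 0.380 (0.102 to 0.992), and chromosome 5 from 90 to 100 Mb from 156 to 5, a ratio of 0.462 (0.148 to 1.10) whose interval holds 1. All 5 belong to the low-density class, of which 10 of 38 bins had enough expected peaks to be counted. With SISSRs sites 29 bins were called lower and at a bin size of 5 Mb 8 were, none of them in the low-density class. In those settings 0 and 4 bins of that class could be counted, and none within the 5 named here. At the other end the highest bin was chromosome 8 from 60 to 70 Mb, at 1.74 (1.32 to 2.27).

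Peaks on chromosome 8 also had another shape. Their median width was 1008 bp with mitoxantrone and 602 bp without drug, against 541 and 487 bp on all other chromosomes. Chromosome 8 held 317 of the 476 mitoxantrone peaks at least 1 kb wide (66.6%, 62.2 to 70.8) and 1009 of 2217 such untreated peaks (45.5%, 43.4 to 47.6). Away from chromosome 8 such peaks made up 2.28% (1.95 to 2.66) of the mitoxantrone list and 1.18% (1.11 to 1.24) of the untreated list. Most of the excess of wide peaks was therefore a feature of this chromosome. The comparison of chromosome 8 was chosen after its values had been seen.

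The change of width began at one point along the chromosome. From 0 to 30 Mb the mitoxantrone median per bin of 10 Mb was 512.5 to 533 bp, as on other chromosomes. From 30 to 40 Mb it was 1054 bp, from 40 to 50 Mb it was 1471.5 bp, and in the bins beyond it stayed between 925.5 and 1179 bp. In the bin from 40 to 50 Mb 25 of 30 mitoxantrone peaks were at least 1 kb wide. The long arm as a whole had a median of 1062 bp, with 292 of 503 peaks (58.1%, 53.6 to 62.4) at least 1 kb wide. Without drug it had a median of 661 bp and 18.0% (16.9 to 19.1). Median density in the etoposide experiment rose from the same bin on. It was 0.961 to 1.00 in the 3 bins from 0 to 30 Mb, 1.35 from 30 to 40 Mb and 2.45 from 40 to 50 Mb.

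**Figure D4:**
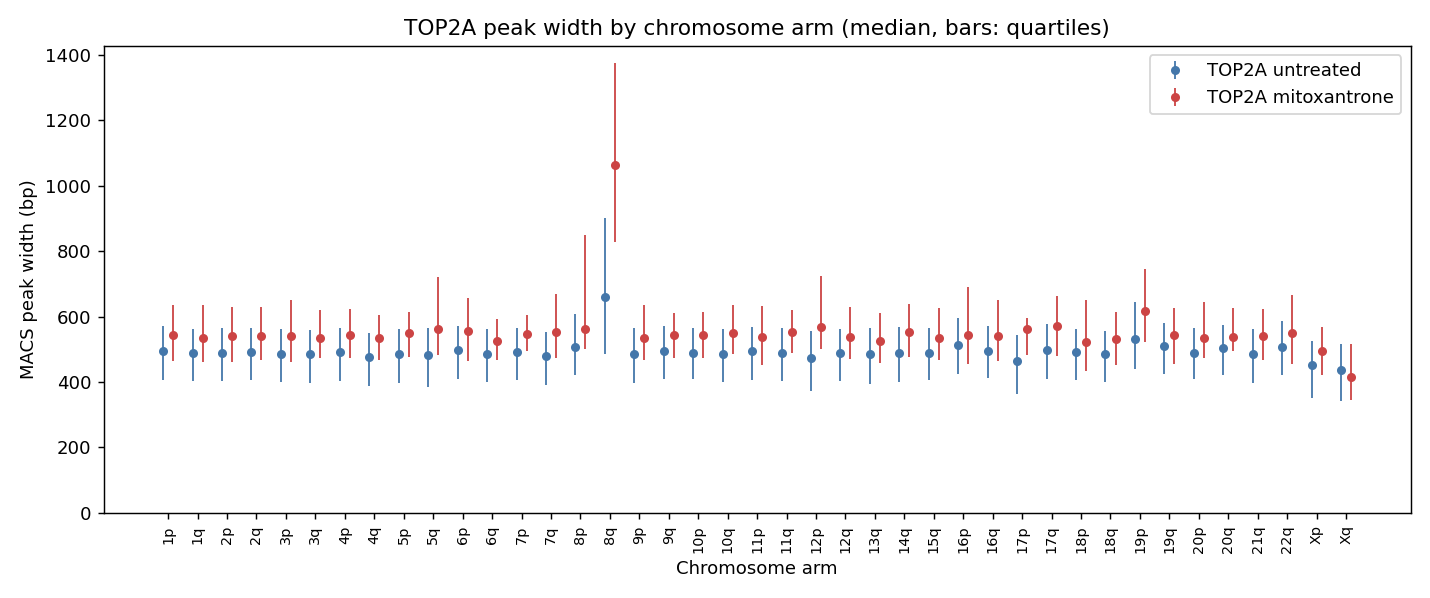
Median MACS peak width (bp) per chromosome arm for both TOP2A lists, with bars for the quartiles. The arm 21p is not drawn. It had 37 untreated peaks with a median of 767 bp and 3 mitoxantrone peaks with a median of 1393 bp. Among the arms drawn 8q stands apart in both lists, at 1062 bp with mitoxantrone and 661 bp without drug. The mitoxantrone quartiles of 8p reach up to 850.5 bp.

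On chromosome 8 the sites of the second caller were many but mostly lay outside the MACS peaks. SISSRs placed 1024 of its 3728 mitoxantrone sites on chromosome 8 (27.5%, 26.0 to 28.9), or 1.64 sites per MACS peak, against 0.388 elsewhere. Only 16.5% (14.3 to 18.9) of those sites lay in a MACS peak, while 60.6% (58.7 to 62.5) of the sites on other chromosomes did. Without drug 20.1% of sites were on chromosome 8, with 31.3% of them in a peak, against 75.6% elsewhere. On 8q, 95.3% of untreated but 29.0% (25.1 to 33.2) of mitoxantrone MACS peaks held a site.

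The share of chromosome 8 moved with score in opposite directions in the lists. Chromosome 8 held 7.88% of the lowest untreated score group and 3.86% of the highest, and X held 1.22% and 2.77%. In the mitoxantrone list chromosome 8 held 6.95% of the lowest score group and 10.02% of the highest. A comparison with only the best 7584 untreated peaks therefore gave a larger difference, with ratios of 2.32 (2.00 to 2.68) for chromosome 8 and 0.161 (0.113 to 0.224) for X.

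In TOP2B the same chromosome was wider as well, with medians of 2681 bp on chromosome 8 and 1017 bp elsewhere with mitoxantrone, and 672 and 458 bp without drug. In the 8 libraries of the etoposide experiment, whose peaks had a median width of 98 to 128 bp, the ratio of the medians was 1.

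Few mitoxantrone peaks marked the positions of untreated peaks. At least 1 bp was shared by 550 of 7584 mitoxantrone peaks (7.25%, 6.68 to 7.86) and by 555 of 109429 untreated peaks (0.507%, 0.466 to 0.551). The share of untreated peaks that were overlapped did not follow their score. It was between 0.401% and 0.669% in each of the 10 score groups and 0.448% (0.331 to 0.592) in the highest. The highest-scoring untreated peaks were thus not overlapped more often than the lowest-scoring ones, at 0.669% (0.525 to 0.841). The highest group was also narrower, with a median of 308 against 522 bp. By midpoints of the untreated peaks the shares inside a mitoxantrone peak were 0.347% and 0.412%. On the mitoxantrone side the share moved with width: of 4 groups by width, 4.73% (3.81 to 5.79) of the narrowest and 10.6% (9.26 to 12.1) of the widest were shared.

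Midpoints do not depend on the width of the mitoxantrone peak. The midpoints of 294 mitoxantrone peaks (3.88%, 3.45 to 4.34) lay inside an untreated peak, and untreated peaks covered 1.96% of the span of the arms, a ratio of 1.98 (1.76 to 2.22). Chromosome 8 had the highest share of overlapping peaks, 86 of 623 (13.8%, 11.2 to 16.8), against 2.44% to 9.52% on the other chromosomes. By midpoints its ratio was 1.79 (1.26 to 2.44), and that of all other chromosomes together was 1.96 (1.73 to 2.21). Untreated peaks covered 3.24% of the span of chromosome 8 and 1.89% of that of the others. The overlap on chromosome 8 was thus greater in share of peaks, but the ratios to cover had overlapping intervals.

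Where peaks overlapped, the mitoxantrone peak was wider in 70.3% of 556 pairs, by a median factor of 1.24. Midpoints were a median of 228.5 bp apart, and 25.9% of pairs had them within 100 bp. Of all mitoxantrone peaks, 16.0% (15.1 to 16.8) lay within 1 kb of an untreated peak and 63.6% (62.5 to 64.7) within 10 kb, measured between edges. Of the untreated peaks themselves, 56.4% lay within 10 kb of another untreated peak, measured between midpoints.

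Mitoxantrone peaks recurred in other libraries somewhat more often than untreated ones. At least 1 of the 10 other immunoprecipitated libraries had a peak at 33.1% (32.0 to 34.2) of mitoxantrone and 27.2% (26.9 to 27.4) of untreated peaks. At least 4 did so at 0.448% (0.311 to 0.626) and 0.130% (0.109 to 0.153). Mitoxantrone peaks that overlapped an untreated peak recurred at 39.6% (35.5 to 43.9), the others at 32.6% (31.5 to 33.7). These shares move with width, so midpoints were set against the share of the span that each library's peaks cover.

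By that measure the lists differed most in the TOP2B mitoxantrone library. Its list was short, with 702 peaks, 432 of them at least 1 kb wide. It overlapped 37 TOP2A mitoxantrone peaks (0.488%) and 120 TOP2A untreated peaks (0.110%), the lowest share in any other library for both lists. There the ratio was 11.9 (8.18 to 16.7) for TOP2A mitoxantrone midpoints and 2.52 (2.05 to 3.06) for untreated ones, resting on 33 and 101 peaks. In the TOP2B untreated library it was 3.86 (2.84 to 5.12) and 2.77 (2.53 to 3.03), with overlapping intervals. In the 8 libraries of the etoposide experiment it ran from 0.813 to 1.56 for mitoxantrone and from 1.05 to 1.20 for untreated peaks. It was higher for mitoxantrone in each of them but TOP2B etoposide replicate 2. Only in TOP2B vehicle replicate 2 were the intervals separate, at 1.44 (1.23 to 1.68) and 1.13 (1.08 to 1.19). Without chromosome 8 and a recurrent stretch of chromosome 6 the first value was 13.5 (8.37 to 20.6), on 21 peaks.

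**Figure D5:**
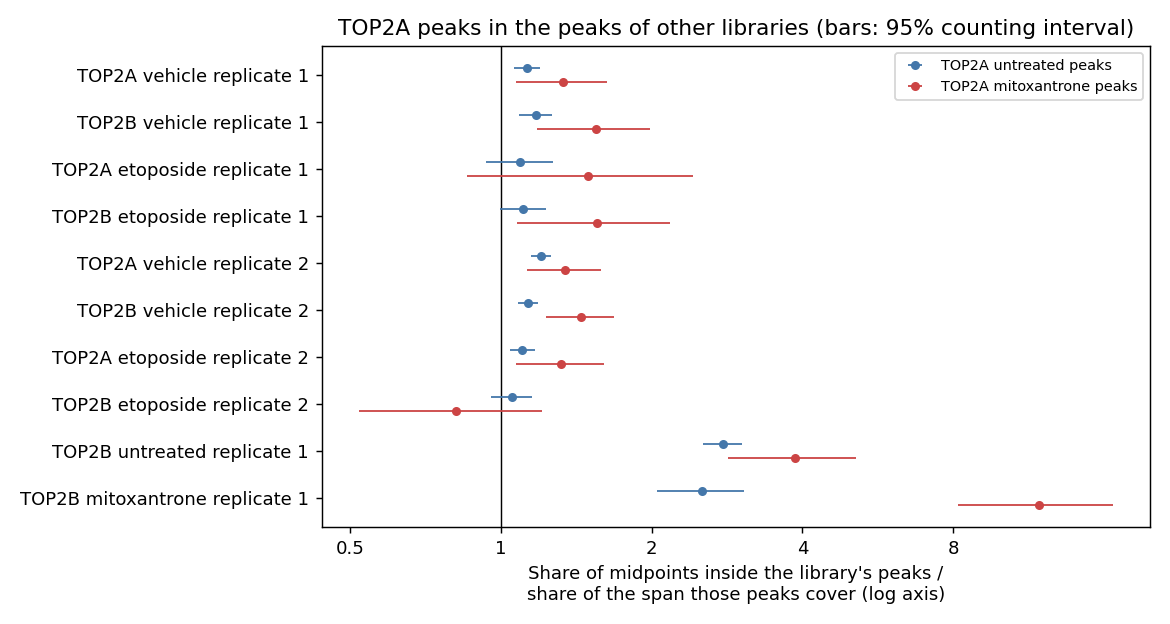
For each of the 10 other libraries, the share of TOP2A peak midpoints inside its peaks divided by the share of the span its peaks cover (log axis), with 95% counting intervals as bars. The mitoxantrone list (red) stands apart in the TOP2B mitoxantrone library, at 11.9 against 2.52, and both lists lie closer together in the other libraries.

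A handful of loci carried the high scores of the mitoxantrone list. All positions are on hg19. The gene tables at hand are on another build, so no gene, exon or intron was assigned to them. The 4 highest scores all lay within a short stretch of chromosome 6p. The first was at chr6:24650642-24651371, 730 bp wide with a score of 2803.8, and all 10 other libraries had a peak there. It was followed by chr6:24658698-24659025 (624.82, in 9 other libraries), chr6:24666626-24667407 (533.07, in 10) and chr6:24652814-24653467 (334.26, in 9). Of these the TOP2A untreated list held only the second, as its second-ranked peak, with a score of 451.36. None of the 4 held a SISSRs site. Thus the highest-scoring mitoxantrone peak was not overlapped in the matched untreated list but was in every other library. The untreated list did hold a peak elsewhere in the same stretch.

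The fifth score, 259.97 at chr12:126073593-126074093, was found at the top peak of the untreated list, with a score of 513.34 there. Among overlapping pairs ranked by the lower of their score percentiles, the chromosome 6 and 12 peaks were followed by chr14:72140936-72141704 (169.52 with mitoxantrone and 366.05 without), chr22:18717418-18718357 (143.25 and 157.02) and chr8:110864496-110865979 (82.6 and 166.1). The last was the only 1 of these 5 with a SISSRs site under mitoxantrone. The widest mitoxantrone peaks had modest scores of 53.5 to 67.05. They were chr1:142584662-142589391 (4730 bp, in 6 other libraries), chr8:37526592-37531129 (4538 bp, in 4) and chr19:50636400-50640717 (4318 bp, in 5), and none of them overlapped an untreated peak.

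Across bins of 1 Mb the mitoxantrone list was thin. The median bin held 40 untreated and 2 mitoxantrone peaks, and 479 of 2888 bins (16.6%) held no mitoxantrone peak, against 2 with no untreated peak. The fullest bins were chromosome 2 from 213000001 to 214000000 with 13 mitoxantrone and 66 untreated peaks, chromosome 8 from 79000001 to 80000000 with 13 and 69, and chromosome 8 from 62000001 to 63000000 with 11 and 44. Chromosome 1 from 74000001 to 75000000 held 10 and 52, and chromosome 3 from 59000001 to 60000000 held 10 and 35. The bins of chromosomes 1 and 3 ranked 412 and 1844 among the untreated bins, so a bin full of mitoxantrone peaks was not always a full one without drug. Across 261 bins of 10 Mb the relative densities of both lists had a Pearson's r of 0.774, and across 40 arms 0.950, as descriptions of 2 libraries that share their cell line.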

How the data were processed

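The authors deposited, for each library, a MACS list with a score per peak and a SISSRs list without a header, whose columns were read from their values as tag count, fold and p-value of each site. The submitters' processing notes name Bowtie2 2.2.5, MACS 1.4, bedtools 2.26.0 and hg19. How the callers were set, whether input entered them and how many reads were obtained is not given in the sources. The input samples were not analysed here. Each library's peaks were deposited as a list of its own.

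Peaks on the 22 autosomes and X were placed by midpoint. Arms were split at the widest stretch free of peaks in all 12 lists. An arm with under 20 mitoxantrone and under 20 expected peaks, and a bin with under 10 expected, was not counted; calls needed a 1.5-fold (arms) or 2-fold (bins) ratio of shares. Shares have exact Clopper-Pearson 95% intervals, and ratios of shares exact conditional binomial ones. No test was run, because each group is 1 library. Density classes used bins with at least 5 Mb of covered span.

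The rule for named regions took the 5 highest scores, the 3 widest peaks, the 5 leading overlapping pairs, the 5 peaks in the most other libraries, the 5 fullest bins of 1 Mb, each arm past its limit and the 3 most extreme bins of 10 Mb past theirs. The members, lists and rules were chosen with earlier results of these data known. The planned gene annotation was not run, because the gene tables are on GRCh38.p14. Alternatives were a score of at least 100, SISSRs sites, lists of equal length, bases covered, and other overlaps, distances and bin sizes. Overlap and counting steps were tested on simulated lists, and the ratio of shares with its interval on fixed counts. The interval of a single share was not tested in this way. Steps were run in Python 3.11.15 with scipy 1.17.1, pandas 2.3.3 and numpy 2.4.6, and plots were drawn in matplotlib 3.10.9.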

Additional observations from a re-analysis of the deposited data

How the results depend on the processing

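Under 68 alternative values 15 stayed within their limits and 53 moved; the cause of the moves was not tested. No paired analysis was possible because each group is 1 library, and no replicate could be left out. At a score of at least 100, which leaves 118 mitoxantrone peaks, the mitoxantrone list was 171-fold shorter and its median width 2.03-fold the untreated one; the share with a SISSRs site was 62.7% against 97.2%, the shared share 3.39% of the mitoxantrone and 0.0198% of the untreated list, the share at arm ends 4.24% against 1.87%, that in other libraries 47.5% against 21.8% and that in clusters 3.39% against 15.0%. No arm could be counted at that score. With SISSRs sites the fold was 28.7, the shared shares 2.09% and 0.0730%, the shares at arm ends 2.95% with mitoxantrone and 4.13% without, which turns their order, the untreated share in clusters 60.8%, and 29 bins were past the limit, none of them among the main 5. With lists of equal length the width ratio was 2, the untreated share with a site 99.7%, both shared shares 0.422%, the untreated shares 1.78% at arm ends, 20.1% in other libraries and 6.21% in clusters, and 7 arms and 51 bins were past the limit, with 8q, 19p and 22q as higher arms and 17 bins higher. Bins past the limit, which included the main 5 with equal lengths and by bases covered but lay outside them at 5 Mb, numbered 9 at 5 Mb, 13 at 20 Mb and 13 by bases covered, of which 1, 0 and 6 were higher. A reciprocal overlap of 50% gave shared shares of 3.43% and 0.238% and recurrence of 1.36% and 1.28%, and peaks of 200 bp gave 3.35%, 0.232%, 20.4% and 18.2%. Within 2 Mb of arm ends lay 5.60% and 5.06%, and within 50 kb of another peak 28.0% and 97.1%.

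Settings added after seeing the data kept each ratio of shares on its side of 1. At a score of at least 100 it was 0.616 (0.200 to 1.44) in low-density bins, 3.25 in high-density bins, 0.700 (0.0845 to 2.54) on X with 2 peaks, and 2.52 on chromosome 8. With equal lengths these were 0.230, 3.29, 0.161 and 2.32. SISSRs sites gave 0.523 in low-density bins, and bases covered 1.83 in high-density bins and 1.73 on chromosome 8. Depth is unknown, so weak peaks lost to depth cannot be told apart from those lost to the drug.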

Other observations

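Ends of arms held slightly more of the mitoxantrone than of the untreated MACS list, within counting error, but less of the mitoxantrone SISSRs sites. Both ends together held 2.73% (2.37 to 3.12) and 2.38% (2.29 to 2.47) of MACS peaks, against 2.95% (2.43 to 3.55) and 4.13% (4.01 to 4.25) of SISSRs sites, so the direction depended on the caller. The outer 1 Mb of the 42 arms held 110 mitoxantrone peaks (1.45%, 1.19 to 1.75) and 1349 untreated peaks (1.23%, 1.17 to 1.30), a ratio of shares of 1.18 (0.960 to 1.43). The 1 Mb next to the centromeric gap held 98 (1.29%, 1.05 to 1.57) and 1254 (1.15%, 1.08 to 1.21), a ratio of 1.13 (0.909 to 1.39). Of the mitoxantrone peaks 16.3% in that inner zone and 11.8% in the outer one were at least 1 kb wide, against 6.39% of the whole list. Without drug 4.94% and 8.90% were, against 2.05% of the whole list. In the inner zone 11 of 98 mitoxantrone peaks (11.2%, 5.74 to 19.2) overlapped an untreated peak. That interval holds the 7.25% of the whole mitoxantrone list.

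Contigs not placed on a chromosome held 16 mitoxantrone peaks on 13 contigs and 109 untreated peaks on 30. Their median width was 1232.5 bp with mitoxantrone and 589 bp without drug, 9 of the 16 were at least 1 kb wide, and 1 overlapped an untreated peak. The peak at 25502 to 28956 of chrUn_gl000241 had a peak in 6 other libraries and was the highest-scoring one with that number.

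Peaks within 10 kb of another peak of the same list made up 56.4% of the untreated and 6.80% (6.25 to 7.39) of the mitoxantrone list. In an untreated list cut to the same length they made up 6.21% (5.68 to 6.78). Of the mitoxantrone peaks in such groups, 16.9% were on chromosome 8, against 8.21% of the whole mitoxantrone list. In the untreated list these shares were 6.66% and 6.16%, and in the cut untreated list 2.55% and 3.55%.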
